A study of Mus musculus with 39 samples.

Results

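Translation initiation and elongation factors are the proteins that load ribosomes onto mRNA, find the start codon and move the ribosome along the coding sequence. The set comprised 58 of the 24062 genes in the count files. Members were the symbols that start with Eif or Eef followed by a digit, together with Tpt1 and Pabpc1, and without the eIF2 kinases (Eif2ak), the eIF4E-binding proteins (Eif4ebp) and pseudogene symbols. RNA was sequenced from 39 samples of plaque tissue in the aortic root of female Apoe-/- mice (B6.129P2-Apoetm1Unc), which develop atherosclerosis on a high-cholesterol diet. Regions were chosen by staining for the macrophage protein CD68 and isolated by laser from sections 6 µm thick, so the level of Cd68 itself is no finding. The diet lasted 12 weeks and the mice were 20 weeks old when assigned. Every mouse was injected intravenously 4 times in 7 days, with tissue taken 24 hours after the final dose. The injections were HDL nanoparticles carrying 5 mg/kg of drug or PBS. TRAF6i-HDL (10 samples) carries a TRAF6 inhibitor and is called CD40-HDL in the protocol; TRAF6 relays signals from the receptor CD40. mTORi-HDL (10) carries rapamycin, an inhibitor of the kinase mTOR. S6K1i-HDL (9) carries PF-4708671, an inhibitor of S6 kinase 1, which lies downstream of mTOR. PBS (10) is the group without particle, and empty HDL was not analysed here, so effects of drug and carrier cannot be told apart. Nothing in the labels says which samples came from separate animals, so p-values measure the spread between these samples, which may be in part technical.

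Initiation begins when eIF2, bound to GTP, delivers the initiator tRNA to the small ribosomal subunit together with eIF1, eIF1A, eIF5 and eIF3. The eIF4 proteins bind the mRNA cap, unwind the leader and, through Pabpc1, hold the poly(A) tail. In elongation, eEF1A brings aminoacyl-tRNA, the eEF1B complex recharges eEF1A with GTP, and eEF2 drives translocation. mTORC1 promotes translation of mRNAs that begin with a 5′ terminal oligopyrimidine (TOP) tract, among them several elongation factors and nearly all ribosomal proteins, and S6 kinase phosphorylates ribosomal protein S6 and eIF4B. These controls act on translation and on proteins, whereas the values here are RNA levels. Fewer cells of a type and less RNA per cell cannot be told apart in such tissue samples.

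Counts in genes ranged between 50091 and 6833491 per library, and 3 libraries were under 200000: TRAF6i-HDL replicate 7, S6K1i-HDL replicate 1 and PBS replicate 9. Mean depth was 1836638 in TRAF6i-HDL, 3200136 in mTORi-HDL, 4479531 in S6K1i-HDL and 1388061 in PBS. Rn45s, a ribosomal RNA gene, took 17.8% ± 8.31 of the counts in TRAF6i-HDL, 23.1% ± 7.81 in mTORi-HDL, 37.0% ± 10.3 in S6K1i-HDL and 13.0% ± 10.9 in PBS (mean ± SD). Of 10 macrophage markers, 8 were detected in every sample, and Mrc1 and Fcgr1 were each at 0 in 1 of 10 PBS samples. Cd68 was among the 8, and so was Lyz2, at a median CPM (counts per 1e6, scaled by TMM factors, which correct library totals for composition) of 5776, 5575, 5471 and 5787 in the same order. The summed level of 10 macrophage markers reached 4655 to 11280 CPM (TRAF6i-HDL), 3945 to 10790 (mTORi-HDL), 4474 to 7965 (S6K1i-HDL) and 2894 to 9551 (PBS). Fibroblast markers were as abundant, at 5395 to 8237, 5192 to 8690, 6301 to 9255 and 5792 to 12260 CPM for 6 genes. B cell markers were near 0, and Cd79a was absent from 6 of 10, 4 of 10, 5 of 9 and 6 of 10 samples.

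Of the 58 members, 53 passed the filter on low counts and were tested among 10411 genes. Eef1a2, the eEF1A form of neurons and muscle, had 60 counts in 21 samples. Eif2s3y, the Y-linked copy of the eIF2 gamma subunit, had 2 counts in 1 sample of these female mice, and Eif4e1b, an oocyte form of eIF4E, had 1 count. Eif3j1 and Eif3j2, which both encode eIF3j, were at 0 in all 39 samples. Most of Eif3j2 is repeated elsewhere: 91.9% of the 50-base words of its transcript also occur in a transcript of another gene, and Eif3j1 itself holds 90.8%. For the longer Eif3j1 transcript the shared part is 54.8%. Reads with several alignments were set apart in the count files and belong to no gene. The cause of the zeros was not tested, so they are not read as absence of eIF3j mRNA.

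The same sequence overlap bears on other members, and it was measured on the longest protein-coding GENCODE M21 transcript of each. No word was shared in 18 members, and under 10% of the words in 39. For 5 members the share was 50% or more: Eif3j2, Eif3j1 at 54.8%, Eif4a1 at 65.3%, Eef1g at 64.3% and Eef1a1 at 60.6%. Tpt1 followed at 42.0%, with the pseudogene Tpt1-ps3 as the main partner, then Eif3m at 40.0%, Eif2s3x at 36.2%, Eif1 at 31.6%, Eif2s2 at 27.8% and Eif3e at 22.0%. The levels of these genes are uncertain to that extent. Among the genes with the clearest differences described here, Eef1b2 shared 5.98% and Eif5 2.62% of their words. Little of their longest transcript is thus repeated in annotated transcripts of other genes. Where the counted reads came from was not measured.

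**Figure D1:**
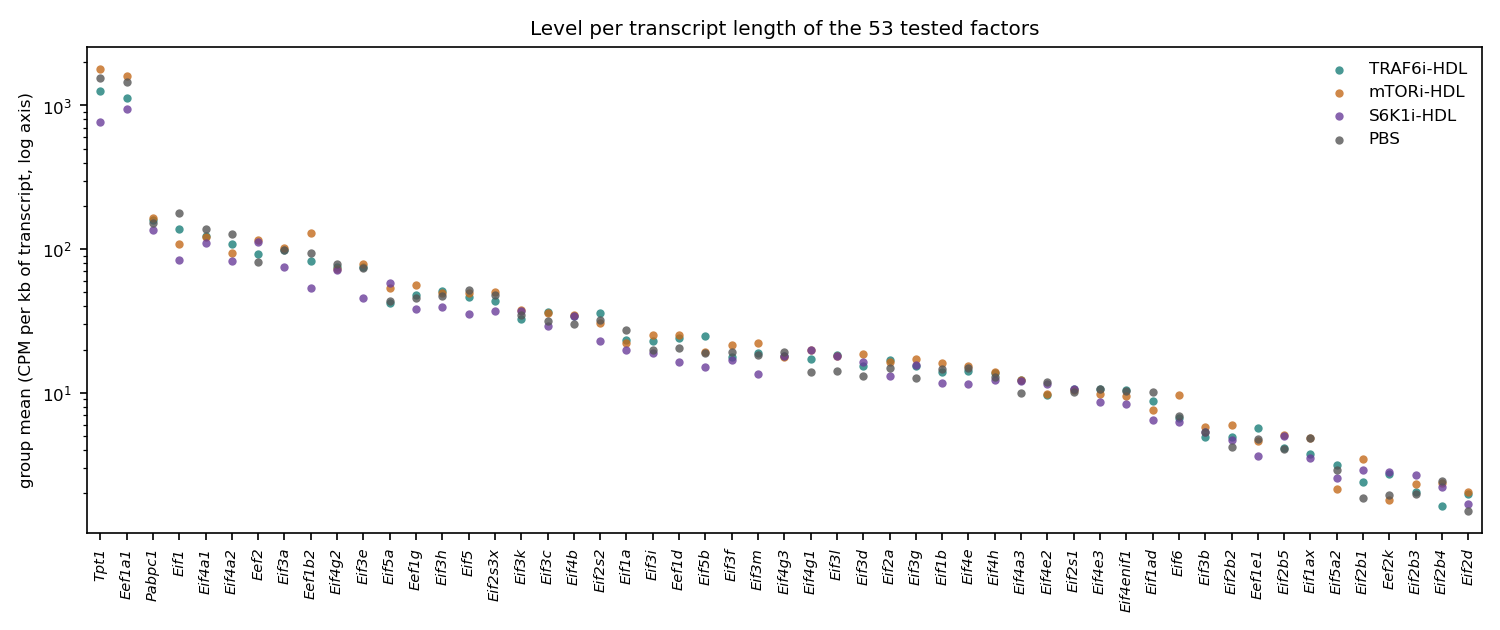
Level of the 53 tested factors per kilobase of transcript (vertical axis, log scale, TMM-scaled CPM per kb), with 1 point for the mean of each group and genes ordered by their mean over all samples. Tpt1 and Eef1a1 stand apart at the left, near 1356 and 1295 CPM per kb, and Pabpc1 is next at 154.

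Members varied over several orders of magnitude among themselves. Eef1a1, the main eEF1A, held 26.5% of the summed member level and Tpt1, a growth-associated protein that binds the eEF1B complex, brought that to 44.6%. With Eif4g2 (an eIF4G relative that does not bind the cap), Eif3a (the largest eIF3 subunit), Pabpc1, Eef2, the eIF4A helicases Eif4a2 and Eif4a1, Eif5 and Eef1b2, 10 genes held 75.2%. Per kilobase of transcript the order of levels was Tpt1 (1356 CPM per kb), Eef1a1 (1295), Pabpc1 (154), Eif1 (128), Eif4a1 (124), Eif4a2 (104) and Eef2 (100.2). At the low end stood the 5 subunits of eIF2B, the exchange factor that reloads eIF2 with GTP, at 2.16 to 4.97 CPM per kb. Subunits of 1 complex were not at 1 level: within eIF3 the range was 94.0 CPM per kb for Eif3a, 69.4 for Eif3e, 47.0 for Eif3h and 5.36 for Eif3b. Among paralogs, Eif5a was at 49.2 CPM per kb and Eif5a2 at 2.69, Eif1 at 128 and Eif1b at 14.2, and Eif4g2, Eif4g3 and Eif4g1 at 74.8, 18.3 and 17.6. The cap-binding proteins Eif4e, Eif4e2 and Eif4e3 lay close together at 14.1, 10.7 and 9.97 CPM per kb. Each length is that of the longest protein-coding transcript, which need not be the one in use.

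Summed over the 58 members, the level was 8478 ± 1446 CPM in TRAF6i-HDL, 10104 ± 1681 in mTORi-HDL, 6880 ± 731 in S6K1i-HDL and 9450 ± 1392 in PBS (SD). Per sample the sums ran between 6784 and 11933 CPM in TRAF6i-HDL, 7468 and 12619 in mTORi-HDL, 5361 and 7758 in S6K1i-HDL and 7040 and 12418 in PBS. Elongation factors made up most of the difference, at 4214, 5868, 3296 and 5111 CPM in the same order. The summed eIF4 factors were closer together, at 2172, 2138, 1970 and 2233 CPM. Differences between groups below come from edgeR's quasi-likelihood test on all genes with Benjamini-Hochberg adjustment over the 10411 tested. A gene passed at an adjusted p under 0.05, and errors of log2 fold changes are standard errors (SE). Overlap of groups is described for single genes only. The share of all tested genes without overlap is not given here, so whether it is unusual for a member cannot be told.

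The sequence around the transcription start is shown for the 10 members that passed in a comparison and had a single RefSeq start, because TOP mRNAs are defined by their first bases. Each line gives 30 bases before the RefSeq start and 20 from it on, in the sense direction on build GRCm38.p6. Capitals mark a C followed by at least 5 more pyrimidines (C or T).
Tpt1: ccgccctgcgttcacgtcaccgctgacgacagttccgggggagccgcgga
Eef1b2: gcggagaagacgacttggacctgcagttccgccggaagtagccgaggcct
Eef1a1: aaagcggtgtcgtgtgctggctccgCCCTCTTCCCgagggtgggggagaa
Eef2: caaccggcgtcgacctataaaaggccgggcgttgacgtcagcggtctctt
Eif2s3x: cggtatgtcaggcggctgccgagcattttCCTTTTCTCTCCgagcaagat
Eif5: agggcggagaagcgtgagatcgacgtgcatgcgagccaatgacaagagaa
Eif1: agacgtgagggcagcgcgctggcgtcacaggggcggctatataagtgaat
Eif2s2: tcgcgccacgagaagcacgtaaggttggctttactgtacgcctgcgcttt
Eif3m: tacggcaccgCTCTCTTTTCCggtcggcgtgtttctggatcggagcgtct
Eif4a2: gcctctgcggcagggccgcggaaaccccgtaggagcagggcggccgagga
The windows lie at chr14:75845226-75845275 (plus strand, Tpt1), chr1:63176801-63176850 (plus, Eef1b2), chr9:78481705-78481754 (minus, Eef1a1), chr10:81176601-81176650 (plus, Eef2), chrX:94212632-94212681 (minus, Eif2s3x), chr12:111538071-111538120 (plus, Eif5), chr11:100319919-100319968 (plus, Eif1), chr2:154892887-154892936 (minus, Eif2s2), chr2:105017008-105017057 (minus, Eif3m) and chr16:23107438-23107487 (plus, Eif4a2). RefSeq starts were given for 45 members (59 starts). A tract lying within 10 bases on either side of the start was found at 17.0% of these starts, at 43.4% of 76 starts of cytosolic ribosomal proteins and at 15.99% of 10199 starts of all tested genes. On the antisense strand the shares were 8.47%, 6.58% and 17.8%. The tract of Eif3m lies further from the start, and Eif5a, which also passed, has 6 starts without a tract there. Of 6 starts of members listed as TOP mRNAs, 2 held a tract (Eef1a1 and Eif3f). The absence of a tract says only that these letters are not in this window, since the annotated start may differ from the one used in plaque cells.

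S6K1i-HDL set against PBS asks how the S6 kinase inhibitor particle changed the plaque transcriptome. It was the contrast with PBS in which members passed: 8 were lower and 2 higher of 53 tested (18.9%), against 11.9% of all tested genes (6.47% lower and 5.46% higher). The lower members were Tpt1, Eef1b2 and Eef1a1 of the elongation machinery and Eif1, Eif5, Eif2s2, Eif3e and Eif4a2 of initiation. The higher ones were Eef2 and Eif5a. Median log2 fold change over the 53 was -0.15, beside 0.00 over all genes, so the typical member was only slightly lower. The summed level, in which Eef1a1 and Tpt1 weigh most, differed more, at 6880 ± 731 CPM in S6K1i-HDL and 9450 ± 1392 in PBS (SD). Scaled by DESeq2 size factors, the 10 members were the same, whereas all genes divided into 744 higher and 533 lower, against 674 lower of 1242 with TMM. Scaled by total counts alone, the median of all genes fell by 0.39, 30 members were lower and 0 higher, and Eef2 and Eif5a were at 0.05 and 0.04. The count of all genes that passed in that fit was larger too and is given in the closing section on processing.

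**Figure D2:**
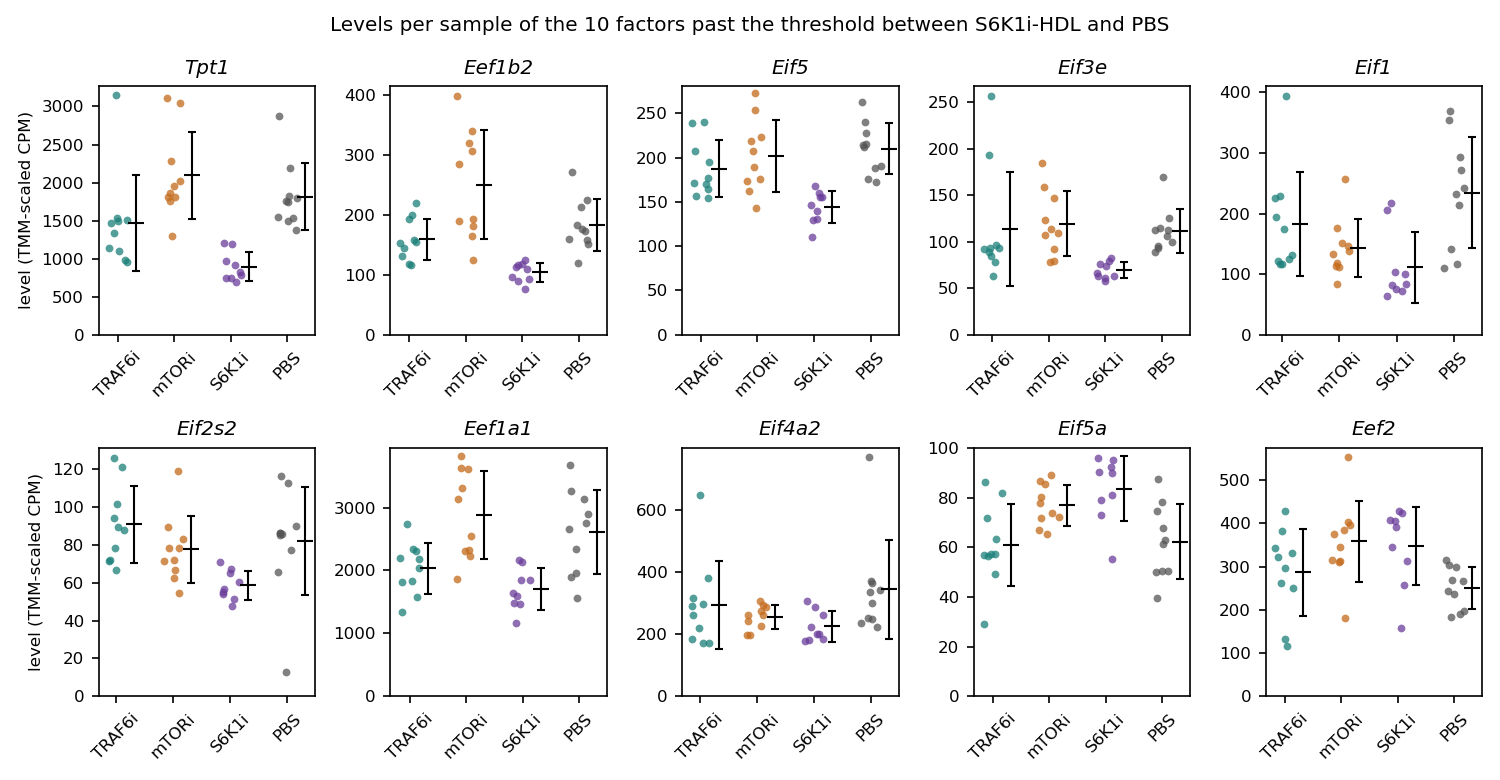
Level per sample (vertical axis, TMM-scaled CPM, from 0) of the 10 factors that passed between S6K1i-HDL and PBS, with 1 point per sample and the mean ± SD beside each group. S6K1i-HDL samples of Tpt1, Eif5 and Eif3e lie wholly below those of PBS, while for Eef2 and Eif5a 8 of 9 lie above the PBS mean. The share of all tested genes without overlap is not given here.

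Tpt1 was the member with the smallest p. Its level was 688 to 1201 CPM in S6K1i-HDL (median 821) and 1379 to 2878 CPM in PBS (median 1754). Every S6K1i-HDL sample lay below every PBS sample, a log2 fold change of -1.02 ± 0.18 (edgeR adjusted p = 0.00034). Eef1b2, the exchange subunit eEF1B alpha, was at 75.7 to 125 CPM in S6K1i-HDL (median 110) and 120 to 271 CPM in PBS (median 175). The groups met only at their edges, and the log2 fold change was -0.83 ± 0.17 (edgeR adjusted p = 0.00154). Eef1a1 was at 1162 to 2170 CPM in S6K1i-HDL (median 1636) and 1567 to 3673 CPM in PBS (median 2710). The groups overlapped, with all 9 treated samples under the PBS mean and a log2 fold change of -0.62 ± 0.17 (edgeR adjusted p = 0.0127).

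The other eEF1B subunits did not pass. Eef1d was at -0.30 ± 0.15 and Eef1g at -0.27 ± 0.15 on the log2 scale. Eef2, the translocase, went the other way: it was at 158 to 428 CPM in S6K1i-HDL (median 391.9) and 183 to 315 CPM in PBS (median 255), a log2 fold change of 0.51 ± 0.18 (edgeR adjusted p = 0.0478). The groups overlapped, and 8 of 9 treated samples lay above the PBS mean. Eif5a, which relieves ribosomes stalled at proline runs, was at 55.3 to 96.2 CPM in S6K1i-HDL (median 90.1) and 39.5 to 87.7 CPM in PBS (median 62.2). Its log2 fold change was 0.42 ± 0.13 (edgeR adjusted p = 0.0327), also with 8 of 9 samples above the PBS mean. Eef2 passed in 19 and Eif5a in 31 of the 39 fits that left out 1 library, and neither passed when no filter on low counts was used. Eef2k, the kinase that inhibits eEF2, was at 0.36 ± 0.22 and did not pass.

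Factors of start codon choice and subunit joining were taken as a broad list of 10. The list held Eif1, Eif1a, Eif1ad, Eif1ax, Eif1b, Eif2a, Eif2d, Eif5, Eif5b and Eif6. Of these 10, 2 were lower, beside 6.47% of all genes lower and 11.9% past the threshold in either direction. Values were negative for 9 of 10, with a median of -0.33. Eif1, which keeps the scanning ribosome from stopping at wrong codons, was at 63.3 to 217 CPM in S6K1i-HDL (median 83.2) and 110 to 370 CPM in PBS (median 237). The groups overlapped, and the log2 fold change was -1.02 ± 0.27 (edgeR adjusted p = 0.0106). Eif1 also differed within PBS, at 110 to 142 CPM in 3 samples with over 20% of counts in Rn45s and 215 to 370 CPM in 7 below. In S6K1i-HDL it was at 63.3 to 217 CPM in 8 samples above that share and 206 CPM in 1 below. Eif5, the GTPase activator of eIF2, was at 111 to 168 CPM in S6K1i-HDL (median 147) and 173 to 263 CPM in PBS (median 214). The groups did not overlap, and the log2 fold change was -0.52 ± 0.13 (edgeR adjusted p = 0.00515). Eif1a, Eif1ad, Eif1ax, Eif1b, Eif2a and Eif5b were at -0.24 to -0.46 without passing.

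Of the eIF2 subunits, Eif2s2 (beta) was lower, at 47.4 to 70.7 CPM in S6K1i-HDL (median 56.7) and 12.6 to 117 CPM in PBS (median 86.2). Its log2 fold change was -0.55 ± 0.15 (edgeR adjusted p = 0.0108); the lowest PBS value, in the shallow replicate 9, lay under all treated samples. Eif2s3x (gamma) was at -0.35 ± 0.13 and Eif2s1 (alpha, the site of stress phosphorylation) at -0.02 ± 0.15, and neither passed. All 5 eIF2B subunits had positive values, with a median of 0.38, and none passed. Eif2b1 was furthest at 0.61 ± 0.31. Against the same PBS samples, 5 of 5 were also positive in mTORi-HDL (median 0.28) and 4 of 5 in TRAF6i-HDL (median 0.13), and none passed.

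In eIF3, 1 of 12 tested subunits was lower (8.33%, against 11.9% of all genes in either direction). Eif3e was at 58.3 to 83.0 CPM in S6K1i-HDL (median 66.1) and 88.5 to 170 CPM in PBS (median 109). The groups did not overlap, and the log2 fold change was -0.69 ± 0.18 (edgeR adjusted p = 0.00921). Eif3m, at -0.55 ± 0.21, and Eif3a, at -0.41 ± 0.17, did not pass, and the other 9 subunits lay between -0.20 and 0.20. Among eIF4 factors, Eif4a2 was lower, at 177 to 306 CPM in S6K1i-HDL (median 201) and 221 to 769 CPM in PBS (median 318), a log2 fold change of -0.63 ± 0.20 (edgeR adjusted p = 0.0303). Its groups overlapped, and 1 PBS sample, replicate 3, was far above the others. Without that sample the value was -0.41 (edgeR adjusted p = 0.133). Eif4a1, the more widely used helicase paralog, was at -0.30 ± 0.14, Pabpc1 at -0.17 ± 0.12, Eif4e at -0.36 ± 0.14 and the scaffold Eif4g1 at 0.48 ± 0.20, and none of these passed.

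**Figure D3:**
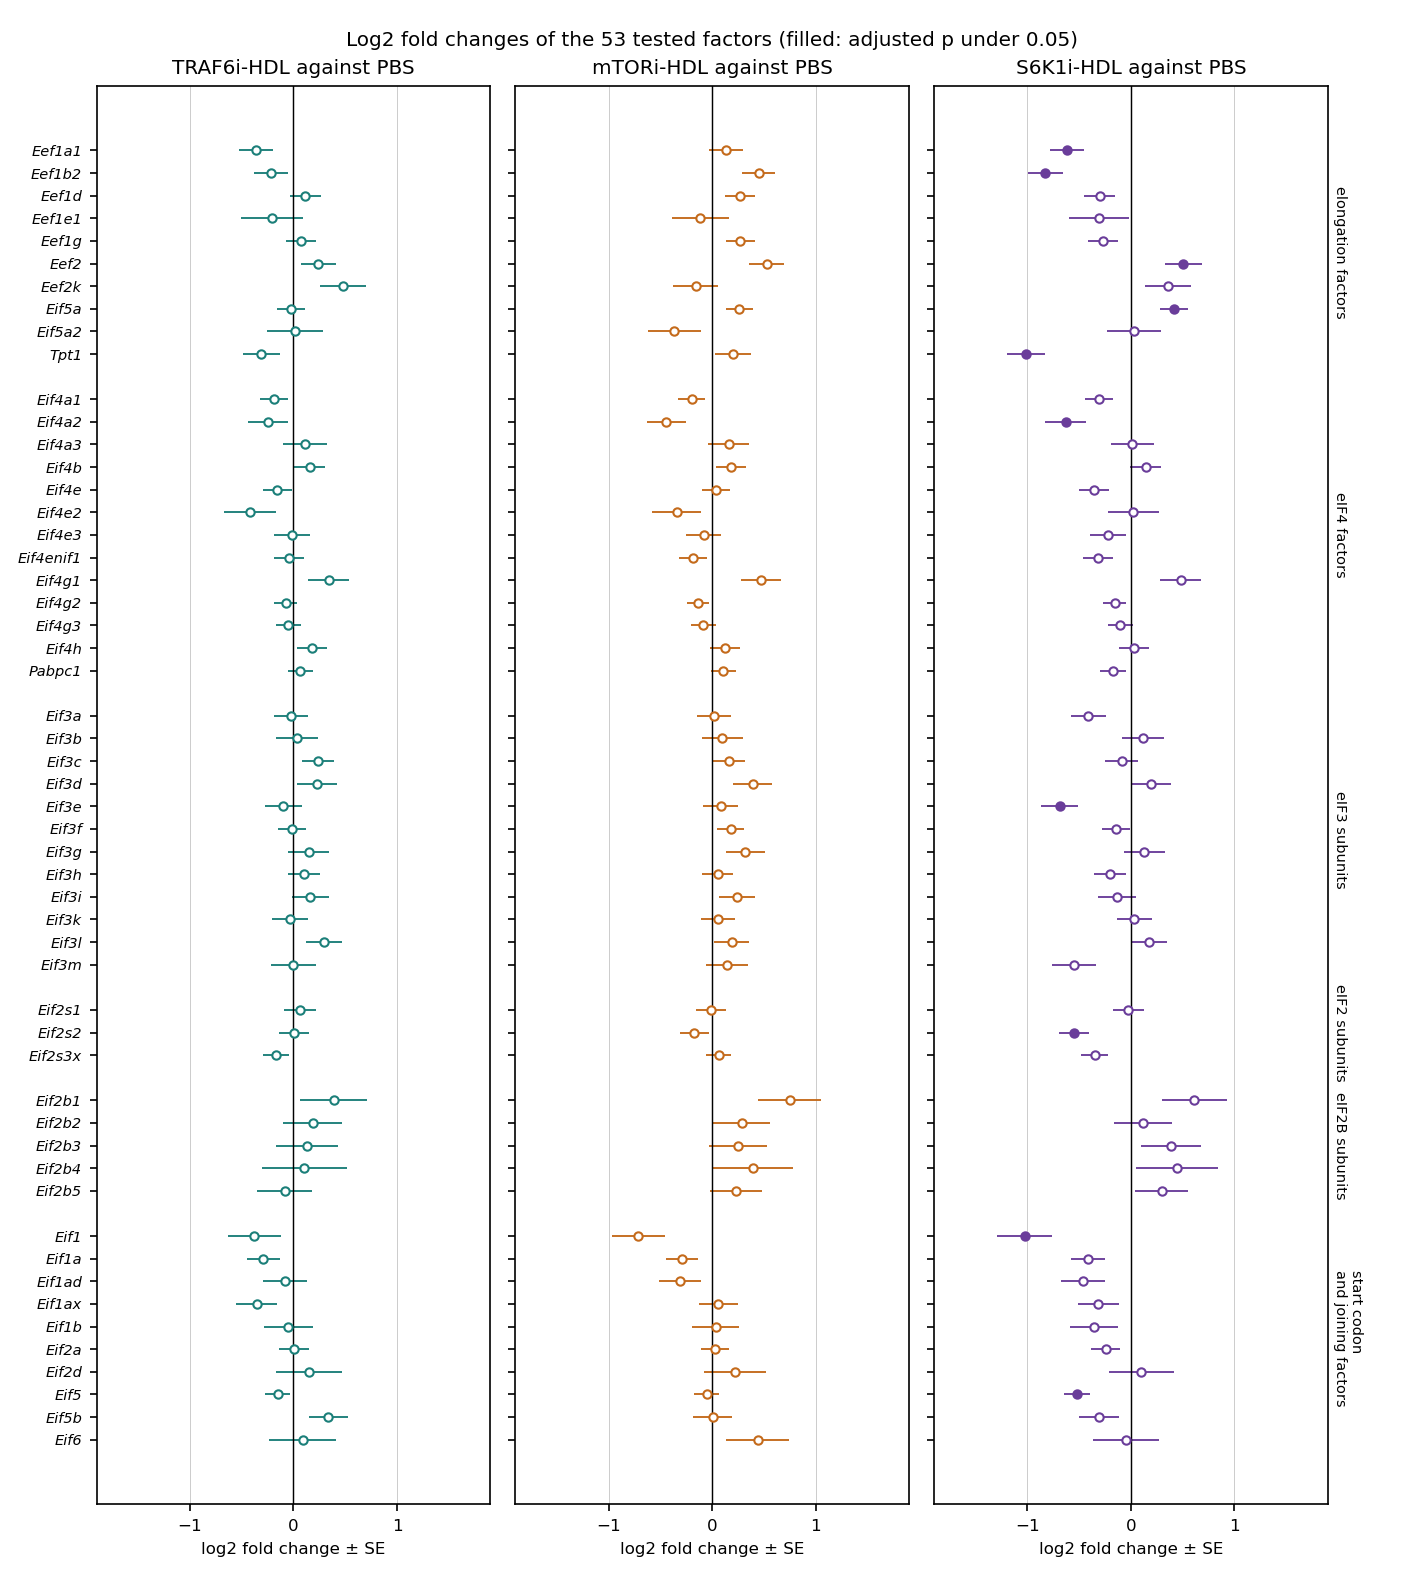
Log2 fold change ± SE (horizontal axis) of the 53 tested factors in TRAF6i-HDL, mTORi-HDL and S6K1i-HDL against PBS, grouped by role, with filled points where the adjusted p is under 0.05. Filled points appear for S6K1i-HDL, 8 left of 0 and 2 right of it, and in neither other panel.

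The share of Rn45s moved with these differences. When its log2 share was added to the fit as a covariate, all 10 calls were lost, and 1 other member, Eif4e2 (a cap-binding protein linked to repression), passed at 0.90 ± 0.21 (edgeR adjusted p = 0.0321). The members then differed among themselves. Eef1b2 kept its size, at -0.79 ± 0.20 (edgeR adjusted p = 0.0547), and so did Eif2s2, at -0.53 ± 0.17 (edgeR adjusted p = 0.13). Tpt1 was at -0.50 ± 0.17 (edgeR adjusted p = 0.178). Eif1, Eif4a2 and Eef2 changed sign, to 0.06 ± 0.16, 0.14 ± 0.16 and -0.09 ± 0.18 (edgeR adjusted p = 0.938, 0.803 and 0.915). Over all genes, 38 passed with the covariate, against 1242 without it. Depth moved the same way, being highest in S6K1i-HDL; its part in the result was not tested.

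**Figure D4:**
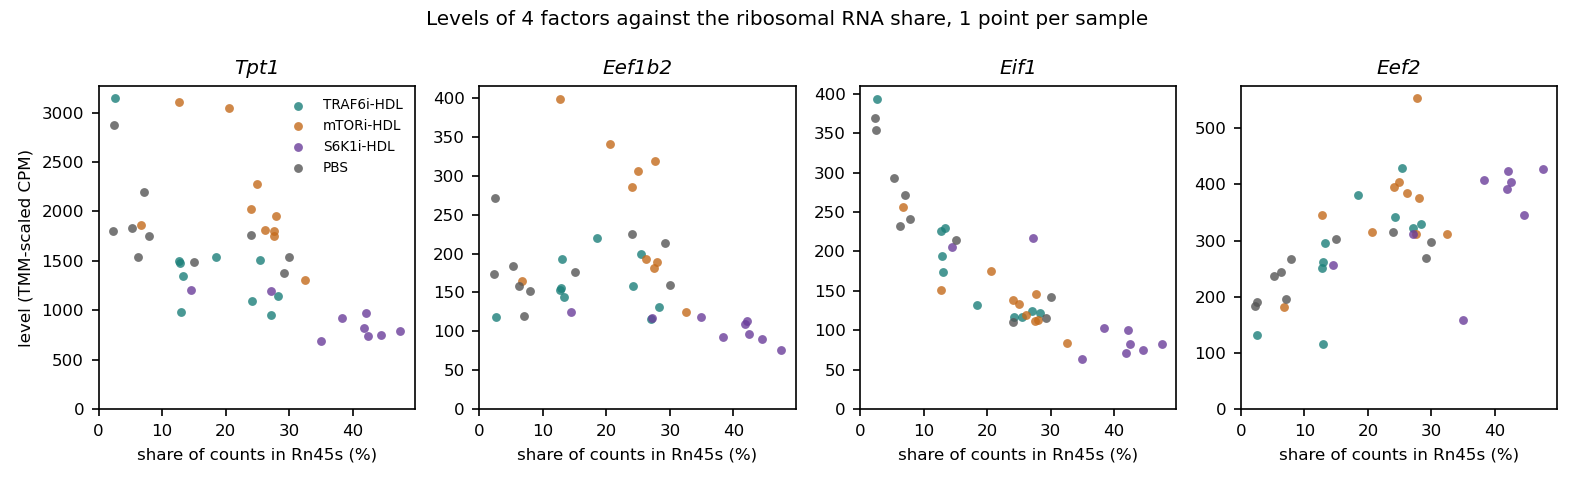
Level of Tpt1, Eef1b2, Eif1 and Eef2 (vertical axis, TMM-scaled CPM) against the share of counts in Rn45s (horizontal axis, %), with 1 point per sample coloured by group. Eef1b2 reaches 399 CPM in mTORi-HDL and stays between 75.7 and 125 CPM in S6K1i-HDL, and Eif1 lies between 63.3 and 217 CPM in S6K1i-HDL and 110 and 370 CPM in PBS.

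The S6K1i-HDL samples are listed in the series in 2 sets, replicates 1 to 6 and 7 to 9; whether these are batches is not stated in the labels. With replicates 1 to 6 alone, 11 members passed against PBS, 9 of them among the 10. The share of all genes in that fit is not given here. With replicates 7 to 9 alone, 0 members and 1 gene of all tested passed. In that fit 10 members had an unadjusted p under 0.05, a level at which the share of all genes is not given here. Tpt1 was at -1.21 ± 0.21 with the first set and -0.70 ± 0.26 with the second, and Eef1b2 at -0.95 ± 0.18 and -0.63 ± 0.22. In a direct comparison of replicates 1 to 6 with 7 to 9, 0 of 53 members passed, as did 0.0192% of all genes. Replicates 7 and 9 were the S6K1i-HDL samples lowest in Rn45s.

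mTORi-HDL set against S6K1i-HDL compares inhibition of the upstream kinase with that of its substrate kinase, without PBS. Members that passed were all higher in mTORi-HDL, 9 of 53 (17.0%), against 6.18% of all tested genes (3.50% higher and 2.68% lower). Of these, 5 were elongation factors: the 3 subunits of eEF1B (Eef1b2, Eef1d and Eef1g), Eef1a1 and Tpt1. The other 4 were Eif3e and Eif3m of eIF3, Eif5 and Eif2s3x. The median of the 53 members was 0.19, beside 0.01 over all genes. Scaled by DESeq2 size factors, 8 members passed, all higher, while all genes divided into 266 higher and 389 lower, against 364 and 279 with TMM.

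Eef1b2 had the smallest p of any member in any comparison. It was at 125.3 to 399 CPM in mTORi-HDL (median 240) and 75.7 to 124.6 CPM in S6K1i-HDL (median 110). Every mTORi-HDL sample lay above every S6K1i-HDL sample, a log2 fold change of 1.28 ± 0.17 (edgeR adjusted p = 1.0e-06). Tpt1 was at 1301 to 3107 CPM in mTORi-HDL (median 1906) and 688 to 1201 CPM in S6K1i-HDL (median 821), again without overlap, and its log2 fold change was 1.22 ± 0.19 (edgeR adjusted p = 1.8e-05). Eef1a1 was at 1866 to 3821 CPM in mTORi-HDL and 1162 to 2170 CPM in S6K1i-HDL, a log2 fold change of 0.75 ± 0.17 (edgeR adjusted p = 0.00313). The ranges of Eef1a1 overlapped, and all 10 mTORi-HDL samples lay above the S6K1i-HDL mean.

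Eef1d (eEF1B delta) was at 52.8 to 99.2 CPM in mTORi-HDL and 23.7 to 64.5 CPM in S6K1i-HDL, a log2 fold change of 0.57 ± 0.15 (edgeR adjusted p = 0.00974). Eef1g (eEF1B gamma) was at 67.2 to 164 CPM in mTORi-HDL and 52.9 to 89.9 CPM in S6K1i-HDL, at 0.54 ± 0.14 (edgeR adjusted p = 0.0112). For both the ranges overlapped, with 10 and 9 of 10 mTORi-HDL samples above the S6K1i-HDL mean. Eif3e was at 0.77 ± 0.17 (edgeR adjusted p = 0.00325) and Eif3m at 0.70 ± 0.20 (edgeR adjusted p = 0.0234). Eif5 was at 0.47 ± 0.12 (edgeR adjusted p = 0.0121) and Eif2s3x at 0.41 ± 0.12 (edgeR adjusted p = 0.0322). Eef2 and Eif5a, the 2 members higher in S6K1i-HDL than in PBS, did not pass here. Eef2 was at 182 to 553 CPM in mTORi-HDL and 158 to 428 CPM in S6K1i-HDL.

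**Figure D5:**
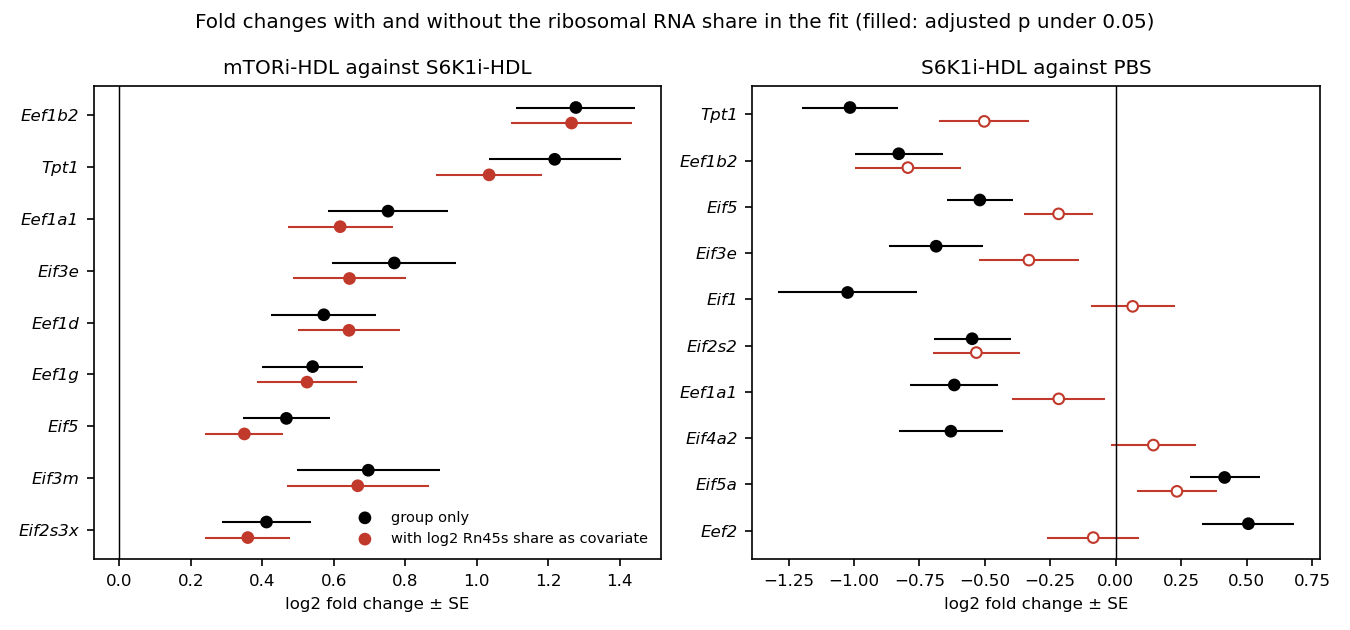
Log2 fold change ± SE (horizontal axis) of the factors that passed in mTORi-HDL against S6K1i-HDL (left) and in S6K1i-HDL against PBS (right), fitted by group only (black) and with the log2 Rn45s share as covariate (red), with filled points where the adjusted p is under 0.05. The 9 factors at left keep filled points in both fits, and the 10 at right have open points with the covariate.

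With the Rn45s share in the fit, these 9 members all passed again and 4 joined them: Eif3a, Eif3c and Eif3f were higher and Eif4e2, at -0.71 ± 0.17 (edgeR adjusted p = 0.00364), was lower. Eef1b2 was then at 1.27 ± 0.17 (edgeR adjusted p = 2.2e-06) and Tpt1 at 1.03 ± 0.15 (edgeR adjusted p = 4.8e-06). The mTORi-HDL samples too are listed in 2 sets. With mTORi-HDL replicates 1 to 4 and S6K1i-HDL replicates 1 to 6, 10 members passed, the 9 among them. With mTORi-HDL replicates 5 to 10 and S6K1i-HDL replicates 7 to 9, 0 passed and 6 had an unadjusted p under 0.05. The shares of all genes in these fits are not given here, so whether the 10 and the 6 are unusual cannot be told. Eef1b2 was at 1.72 ± 0.21 in the first pair of sets and 0.82 ± 0.24 in the second (edgeR adjusted p = 6.5e-07 and 0.0687). Tpt1 was at 1.54 ± 0.24 and 0.81 ± 0.28 (edgeR adjusted p = 4.3e-05 and 0.158). Between mTORi-HDL replicates 1 to 4 and 5 to 10 no member passed, against 0.355% of all genes.

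TRAF6i-HDL set against S6K1i-HDL had 3 higher members, 5.66% of 53, against 1.59% of all tested genes (1.20% higher and 0.394% lower; with total counts alone, 1477 genes higher and 6 lower). Tpt1 was at 950 to 3146 CPM in TRAF6i-HDL (median 1408) and 688 to 1201 CPM in S6K1i-HDL (median 821), a log2 fold change of 0.71 ± 0.18 (edgeR adjusted p = 0.0315). Eef1b2 was at 116 to 220 CPM in TRAF6i-HDL and 75.7 to 125 CPM in S6K1i-HDL, at 0.62 ± 0.17 (edgeR adjusted p = 0.0398). Eif2s2 was at 66.7 to 126 CPM in TRAF6i-HDL and 47.4 to 70.7 CPM in S6K1i-HDL, at 0.55 ± 0.15 (edgeR adjusted p = 0.0346). The ranges of all 3 overlapped, and 10 of 10 TRAF6i-HDL samples lay above the S6K1i-HDL mean for each. With the Rn45s share in the fit, none of the 3 passed: Eif2s2 was at 0.53 ± 0.15 and Eef1b2 at 0.60 ± 0.18, close to their values without it, and Tpt1 at 0.35 ± 0.16 (edgeR adjusted p = 0.0943, 0.101 and 0.329). Eif3c and Eif4e2 passed in that fit. Leaving out TRAF6i-HDL replicate 8, whose Tpt1 was 3146 CPM, put Tpt1 at 0.51 (edgeR adjusted p = 0.113), and without the 3 shallow libraries Eef1b2 was at 0.61 ± 0.18 (edgeR adjusted p = 0.0588).

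TRAF6i-HDL set against mTORi-HDL had 1 lower member, 1.89% of 53, against 2.92% of all tested genes (1.56% higher and 1.36% lower). All genes divided into 162 higher and 142 lower with TMM, 188 and 102 with DESeq2 size factors, and 176 and 29 with total counts. Eef1b2 was at 116 to 220 CPM in TRAF6i-HDL (median 154) and 125 to 399 CPM in mTORi-HDL (median 240), a log2 fold change of -0.66 ± 0.16 (edgeR adjusted p = 0.0118). The ranges overlapped, and all 10 TRAF6i-HDL samples lay below the mTORi-HDL mean. Eef1a1, at -0.50 ± 0.16, Tpt1, at -0.51 ± 0.18, and Eef2k, at 0.64 ± 0.21, did not pass (edgeR adjusted p = 0.0849, 0.101 and 0.0806). Without TRAF6i-HDL replicate 8, Tpt1 passed at -0.72 (edgeR adjusted p = 0.00622). Against mTORi-HDL replicates 1 to 4 alone Eef1b2 was at -0.98 ± 0.19, and against replicates 5 to 10 alone it was at -0.40 ± 0.17 (edgeR adjusted p = 0.00229 and 0.201).

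mTORi-HDL set against PBS had 0 members past the threshold by edgeR, against 1.64% of all tested genes (0.624% higher and 1.02% lower). With total counts alone, 8 genes were higher and 140 lower. An unadjusted p under 0.05 was found for 8 members. The share of all genes at that level is not given here, so whether 8 is unusual cannot be told. DESeq2 called 1 (Eif1) and limma-voom 1 (Eef2). Eef2 had the smallest p: it was at 182 to 553 CPM in mTORi-HDL (median 360) and 183 to 315 CPM in PBS (median 255), at 0.53 ± 0.17 (edgeR adjusted p = 0.0855). The ranges overlapped, and 9 of 10 mTORi-HDL samples lay above the PBS mean. Without the 3 shallow libraries it was at 0.55 ± 0.16 (edgeR adjusted p = 0.0458). Eef1b2 was at 0.45 ± 0.16, Eif1 at -0.71 ± 0.25, Eif2b1 at 0.75 ± 0.30, Eif4g1 at 0.47 ± 0.19 and Eif4a2 at -0.44 ± 0.19, and none passed. For Eif2b1 and Eif4g1, 10 of 10 samples lay above the PBS mean, and for Eif4a2 10 of 10 lay below it. With the Rn45s share in the fit, Eif1 was at 0.02 ± 0.14 and Eif4a2 at 0.08 ± 0.14.

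TRAF6i-HDL set against PBS also had 0 members past the threshold, by edgeR, DESeq2 and limma-voom, against 0.0192% of all tested genes by edgeR (0.00961% in each direction). Among members, unadjusted p-values under 0.05 numbered 2 with edgeR, 2 with DESeq2 and 7 with limma-voom. The shares of all genes at that level are not given here. Eef1a1 was at 1335 to 2730 CPM in TRAF6i-HDL (median 2108) and 1567 to 3673 CPM in PBS (median 2710), at -0.36 ± 0.16 (edgeR adjusted p = 0.39). Eef2k was at 9.68 to 26.4 CPM in TRAF6i-HDL (median 16.1) and 8.65 to 16.9 CPM in PBS (median 12.9), at 0.48 ± 0.22 (edgeR adjusted p = 0.403). Both ranges overlapped. Confidence intervals (95%) of the log2 fold change were -0.68 to -0.04 for Eef1a1, -0.66 to 0.04 for Tpt1 and -0.53 to 0.11 for Eef1b2, before any adjustment for the number of genes.

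The 11 members with textbook TOP mRNAs (Eef1a1, Eef1b2, Eef1d, Eef1g, Eef2, Eif3e, Eif3f, Eif3h, Eif4b, Tpt1 and Pabpc1) were taken as a class. In S6K1i-HDL against PBS, where 11.9% of all genes passed, 4 were lower and 1, Eef2, was higher, with 9 negative values of 11 and a median of -0.27, and of the 42 other tested members 4 were lower and 1 higher, with a median of -0.09. In mTORi-HDL against S6K1i-HDL, where 6.18% of all genes passed, 6 of 11 were higher and all 11 values were positive, with a median of 0.54, and 3 of the 42 others were higher, with a median of 0.14. In TRAF6i-HDL against S6K1i-HDL 2 were higher and 10 of 11 values were positive (1.59% of all genes passed), and in TRAF6i-HDL against mTORi-HDL 1 was lower and 10 of 11 were negative (2.92%). In mTORi-HDL against PBS all 11 had positive values, with a median of 0.18, and 0 passed; the 42 others had a median of 0.05. In TRAF6i-HDL against PBS the median was 0.06 for the 11 and 0.00 for the others. These comparisons share their PBS or S6K1i-HDL samples, so their values are not independent of one another. Summed, the 11 were at 4913 ± 1013 CPM in TRAF6i-HDL, 6597 ± 1442 in mTORi-HDL, 3851 ± 557 in S6K1i-HDL and 5775 ± 1071 in PBS (SD).

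Ribosomal proteins, which share the TOP leader, stood beside the factors. In S6K1i-HDL against PBS 48 of 79 tested were lower and 0 higher (60.8%, against 11.9% of all genes), with a median of -0.52. In mTORi-HDL against S6K1i-HDL 51 were higher and 0 lower (64.6%, against 6.18% of all genes), with a median of 0.58. In TRAF6i-HDL against S6K1i-HDL 22 were higher (27.9%, against 1.59% of all genes), with a median of 0.42. Rps6, the S6 kinase substrate, was at 158 to 231 CPM in S6K1i-HDL and 267 to 615 CPM in PBS, a log2 fold change of -0.87 ± 0.15 without overlap (edgeR adjusted p = 0.000217). In mTORi-HDL against PBS 1 of 79 ribosomal proteins was higher and 0 lower (1.27%, against 1.64% of all genes), with a median of 0.05.

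Of 9 genes for eIF2 kinases, 4E-BPs and eIF2 phosphatase subunits, 2 were higher in S6K1i-HDL than in PBS (22.2%, against 11.9% of all genes), and the median of the 9 was -0.25. Eif4ebp2, which sequesters eIF4E, was at 7.91 to 37.9 CPM in S6K1i-HDL (median 29.1) and 6.87 to 25.3 CPM in PBS (median 10.1), at 1.04 ± 0.23 (edgeR adjusted p = 0.00264). Eif2ak2, the kinase PKR, was at 40.6 to 87.0 CPM in S6K1i-HDL (median 43.2) and 20.5 to 75.8 CPM in PBS (median 35.2), at 0.48 ± 0.17 (edgeR adjusted p = 0.0457). The ranges of both genes overlapped. In mTORi-HDL against S6K1i-HDL Eif2ak2 was lower, at -0.67 ± 0.16 (edgeR adjusted p = 0.00464), and Ppp1r15a, the stress-induced phosphatase subunit GADD34, was higher, at 1.04 ± 0.31 (edgeR adjusted p = 0.0326).

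Of 20 genes of mTORC1, S6 kinase and related inputs, 1 was higher and 3 were lower in S6K1i-HDL than in PBS. Their median was 0.00, and 11.9% of all genes passed in that comparison. Tsc2, part of the complex that restrains mTORC1, was higher in S6K1i-HDL than in PBS, at 0.60 ± 0.19 (edgeR adjusted p = 0.0341). In the same list Rps6 and the Pabpc1 partners Paip1, at -0.73 ± 0.23, and Paip2, at -0.61 ± 0.18, were lower (edgeR adjusted p = 0.0316 and 0.0235 for the partners). The genes of mTOR and S6 kinase 1 did not pass against PBS: Mtor was at 0.34 ± 0.19 in mTORi-HDL and Rps6kb1, which encodes S6 kinase 1, at -0.24 ± 0.16 in S6K1i-HDL. An inhibitor acts on the protein, so these levels do not check the labels. Traf6, the gene of the TRAF6 inhibitor's target, was not among the listed genes. In S6K1i-HDL against PBS 1 of 8 termination and recycling genes was lower, Mcts1, a recycling factor, at -0.79 ± 0.25 (edgeR adjusted p = 0.0289). Of 22 aminoacyl-tRNA synthetase genes 1 was lower, Dars, the aspartyl enzyme, at -0.54 ± 0.18 (edgeR adjusted p = 0.0383). These shares, 12.5% and 4.55%, were near or under the 11.9% of all genes.

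Markers of other cells were set beside the S6K1i-HDL and PBS difference. The summed macrophage level was 6643 ± 1274 CPM in S6K1i-HDL and 6959 ± 1830 in PBS. Of 10 macrophage markers 1 was lower and 0 higher (10.0%, against 11.9% of all genes). Endothelial and fibroblast markers had 0 of 7 and 0 of 6 past the threshold. Of 6 smooth muscle markers tested, 0 passed, yet all 6 values were positive, with a median of 0.76, and the sums were 364 to 1027 CPM in S6K1i-HDL and 143 to 948 CPM in PBS. Of the adipocyte list, Adipoq, Plin1, Cfd and Lep were at 0 in all 10 PBS samples, and its 1 tested gene was Fabp4, which macrophages and endothelium also express. Fabp4 was lower, at a median of 79.7 CPM in S6K1i-HDL and 181 CPM in PBS (log2 fold change -1.57). In mTORi-HDL against S6K1i-HDL, where 6.18% of all genes passed, 2 of 10 macrophage markers were higher and 1 was lower. In the same comparison 3 of 7 endothelial markers were higher. Endothelial sums were 407 to 769 CPM in mTORi-HDL and 228 to 512 CPM in S6K1i-HDL. The part of these markers in the members' differences was not tested.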

How the data were processed

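Each sample's deposited file lists unnormalized counts by gene symbol, which the authors made with TopHat2 2.1.0, Bowtie2 2.2.8 and HTSeq 0.6.1, per the submitters' processing notes, with no role or order stated. RNA was amplified before sequencing, per the labels' protocols, so counts are not independent molecules. The notes name the human build hg19, which cannot underlie mouse symbols; the mouse build, annotation and strand setting are not given in the sources used here. The 5 closing lines of each file, which name no gene, were left out; reads outside genes were 50.5% and reads with several alignments 17.1% of all lines on average.

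All 39 samples were fitted in R 4.3.3 with edgeR 4.0.16 (filterByExpr, TMM, robust quasi-likelihood, group as the only term), and 10411 genes were adjusted together by Benjamini-Hochberg. The 6 comparisons, the members and the lists were chosen with earlier results of these data known. Named were every member past the threshold, the 10 with the smallest p in each comparison, the 10 most abundant, the members not tested and paralog pairs; not every one of these is described. Levels per kilobase and sequence overlap used GENCODE M21, matched by symbol for all 58 members, and start windows used RefSeq (GRCm38.p6), matched for 45. Alternatives used DESeq2 1.42.0 and limma 3.58.1. The script for the tests was checked on simulated counts. Replicate numbers do not pair samples.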

Additional observations from a re-analysis of the deposited data

Results flagged for a closer look

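For each of 30 named members in each of 4 groups, the highest and lowest sample was compared with the others by its gap relative to the group's range (120 groups). Chance gives a flag in about 1 group in 20, and 22 values were flagged. Several flags fell on the same library, so they are not independent of one another. Many flags fell on libraries under 200000 counts. In S6K1i-HDL replicate 1 (118527 counts), Eef2k was highest at 39.5 CPM, and Eif2s3x (71.2 CPM), Eif3c (47.4 CPM), Eif4a1 (119 CPM), Eif5a (55.3 CPM), Eif2b1, Eif4e2 and Eif5a2 (0 CPM each) were lowest. In PBS replicate 9 (50091 counts), Eif2s2 (12.6 CPM), Eif4a1 (139.0 CPM), Eif3l and Eif3m (0 CPM each) were lowest. In TRAF6i-HDL replicate 7 (66602 counts), Eif5a (29.0 CPM) and Eif3m (0 CPM) were lowest.

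Deeper libraries held the other flags. In TRAF6i-HDL replicate 8, with 430805 counts and 2.59% of them in Rn45s, Tpt1 (3146 CPM, against 1536 CPM in the next sample), Eif5b (479 CPM) and Eif5a2 (44.0 CPM) were highest and Eif1ax (2.198 CPM) lowest. In mTORi-HDL replicate 5, with 6.71% of counts in Rn45s, Eef2 (182 CPM) and Eif3c (77.9 CPM) were lowest and Eif4e2 (77.0 CPM) highest. In PBS replicate 3, with 2.49% of counts in Rn45s, Eif4a2 was highest at 769 CPM. These 3 libraries were at or near the low end of the Rn45s share in their groups; its part in the flags was not tested.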

How the results depend on the processing

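Most values of single members kept their direction and side of the threshold: over 60 results and all alternatives, 2928 did, 124 were no longer past it, 42 newly passed and 6 changed sign. These totals are no measure of stability, since most alternatives left out only 1 library and most of the 60 results had not passed at first. In S6K1i-HDL against PBS all 10 calls were lost with the Rn45s share as covariate, and likewise with S6K1i-HDL replicates 7 to 9 alone. Leaving out 1 library at a time gave 0 to 0 members past the threshold for TRAF6i-HDL against PBS, 0 to 1 for mTORi-HDL against PBS, 7 to 11 for S6K1i-HDL against PBS, 1 to 3 for TRAF6i-HDL against mTORi-HDL, 0 to 5 for TRAF6i-HDL against S6K1i-HDL and 7 to 10 for mTORi-HDL against S6K1i-HDL. In S6K1i-HDL against PBS, Tpt1, Eef1b2, Eif5, Eif3e, Eif1, Eif2s2 and Eef1a1 passed in all 39 such fits and Eif4a2 in 33, failing without PBS replicate 3 or S6K1i-HDL replicates 2, 3, 5, 6 or 8. Eif5a failed without PBS replicates 2, 3 or 4 or S6K1i-HDL replicates 2, 4, 5, 6 or 8 (adjusted p up to 0.0718). Eef2 failed without PBS replicates 1 to 6, S6K1i-HDL replicates 2 to 6 or 8, TRAF6i-HDL replicates 4 or 5, or mTORi-HDL replicates 3, 4, 6, 7, 9 or 10 (up to 0.101). In mTORi-HDL against S6K1i-HDL, Eif3m failed without mTORi-HDL replicates 1 or 7 (up to 0.0558) and Eif2s3x without those or S6K1i-HDL replicates 1 or 6 (up to 0.0826). In TRAF6i-HDL against S6K1i-HDL, Tpt1 passed in 30 of 39 fits, failing without TRAF6i-HDL replicates 3, 6 or 8 or S6K1i-HDL replicates 1 to 6 (up to 0.113). Eif2s2 passed in 28, failing without TRAF6i-HDL replicates 2, 6, 7 or 8 or S6K1i-HDL replicates 1 to 6 or 8 (up to 0.0771), and Eef1b2 in 26, failing without TRAF6i-HDL replicates 1, 2, 3, 5, 6, 7 or 8 or S6K1i-HDL replicates 2 to 6 or 8 (up to 0.0999).

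The 3 inhibitor comparisons with PBS and the 3 between inhibitors moved as follows. With the Rn45s share as covariate, 1 member passed in S6K1i-HDL against PBS in place of 10 and 3 in TRAF6i-HDL against mTORi-HDL in place of 1, and the values of Eif1 (0.0648 in S6K1i-HDL and 0.0211 in mTORi-HDL against PBS), Eif4a2 (0.14 and 0.0839) and Eef2 (-0.0859 in S6K1i-HDL against PBS) changed sign. With total counts and no TMM factors, 30 members passed in S6K1i-HDL against PBS, 19 in TRAF6i-HDL against S6K1i-HDL, 15 in mTORi-HDL against S6K1i-HDL and 0 in TRAF6i-HDL against mTORi-HDL; the median of all genes then moved to -0.39, 0.33, 0.22 and 0.12. DESeq2's Wald test gave 1 member in mTORi-HDL against PBS, 3 in TRAF6i-HDL against mTORi-HDL and 6 in TRAF6i-HDL against S6K1i-HDL, and limma-voom gave 1, 4 and 8, with 14 in mTORi-HDL against S6K1i-HDL. Without the 3 shallow libraries 1 member passed in mTORi-HDL against PBS, and without a low-count filter 1 in TRAF6i-HDL against S6K1i-HDL. With mTORi-HDL replicates 1 to 4 alone, 1 member passed against PBS, and 2 were lower in TRAF6i-HDL; with replicates 5 to 10 alone the second count was 0. With S6K1i-HDL replicates 7 to 9 alone, 0 passed against PBS and 0 in TRAF6i-HDL, and with mTORi-HDL replicates 5 to 10 against those 3, 0 passed and Eif4e was at -0.0083; fewer samples enter these fits. Counts over all genes moved too: in S6K1i-HDL against PBS they were 1242 with edgeR, 38 with the Rn45s share as covariate, 3014 with total counts and 1922 with limma-voom, and in mTORi-HDL against S6K1i-HDL 643, 813, 871 and 1850. DESeq2 called 25 genes in TRAF6i-HDL against PBS, where edgeR called 2. Causes of the other shifts were not tested.

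Same-numbered samples did not deviate together (57 pairs, correlations -0.21 to 0.29, median 0.01; 6 of 39 samples correlated best with their own number). With the replicate block, 0 members passed in TRAF6i-HDL against S6K1i-HDL in place of 3, 9 in S6K1i-HDL against PBS and 7 in mTORi-HDL against S6K1i-HDL. Depth limits the 3 shallow libraries, which give 0 for several members.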
